A study of Rattus norvegicus with 70 samples.

Results

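The genes of oxidative phosphorylation were followed through a rat model of chemically induced liver carcinogenesis in which DNA methylation had been profiled around transcript starts. Members were every row of the deposited region tables whose gene name starts with Nduf, Uqcr, Cox and a digit, or Atp5, together with Sdha to Sdhd and Cycs. This rule took 94 of 17174 region rows, which carried 89 of 16561 gene symbols and 91 of 16876 distinct places in the genome. The rule itself uses gene names and no measured value, although it was set with earlier results of these data known. By complex the members covered 36 places for complex I, 4 for complex II, 7 for complex III, 14 for complex IV and 17 for complex V (ATP synthase). Cycs added 1 place and assembly factors 10, and 2 further places matched by name only. These are Cox4nb, which is now called Emc8, and Cox6c-ps1, a pseudogene. Atp5sl and Atp5s, counted with complex V for their names, are Dmac2 and Dmac2l in RefSeq, and Dmac2 is known as a complex I assembly protein.

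Livers came from Crj:CD(SD)IGS rats, and methylated DNA was captured with the MethylMiner kit, in which a methyl-CpG-binding protein holds methylated fragments, before sequencing on a SOLiD 4 instrument. The 5 initiated conditions were diethylnitrosamine (DEN, an alkylating liver carcinogen) at 30 mg/kg (DEN30) and 3 mg/kg (DEN3), thioacetamide (TAA, a hepatotoxicant) at 45 mg/kg, methapyrilene (MP, a hepatotoxic antihistamine) at 100 mg/kg, and acetaminophen (APAP) at 1000 mg/kg. All 5 were followed by phenobarbital (PB) at 500 ppm. The PB group received 0.5% methylcellulose as vehicle and then the same phenobarbital, and the water group received the vehicle and then plain water. Initiation lasted 1 or 2 weeks, and 1 week for DEN30 because the rats lost weight, with 2 weeks of withdrawal before promotion. Liver was sampled at terminal euthanasia (6 weeks of promotion) and at partial hepatectomy (1 week). Every animal had undergone the hepatectomy, so terminal tissue is the regrown remnant of the liver in all groups. Each of the 14 groups had 5 libraries. The labels speak of 5 rat livers per group but do not tie a library to a rat, so p-values measure the spread between libraries. The tissue is whole liver, and a changed mixture of cells cannot be told apart from a change within cells.

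Oxidative phosphorylation passes electrons from NADH through complex I, or from succinate through complex II, to ubiquinone, then through complex III and the mobile carrier cytochrome c to complex IV, where oxygen is reduced. Complexes I, III and IV pump protons across the inner mitochondrial membrane, and complex V uses the returning protons to make ATP. Most subunits are encoded in the nucleus, and the hepatocyte is rich in mitochondria and depends on them for gluconeogenesis, ureagenesis and fatty acid oxidation. Many of the nuclear genes have CpG-rich promoters with sites for nuclear respiratory factor 1 (NRF1), GABP (an ETS-family factor) and YY1. Several complex IV subunits also exist as isoforms expressed mainly in muscle, lung or testis.

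The promoters of 4 genes are shown because they frame the levels reported next, and a further window was left out for a reason given with its gene. They are RefSeq windows of 300 bases in the GRCr8 build, from 250 before to 50 after the start, 5′ to 3′ on the gene's strand. Ndufa6 (chr7:115750268-115750567, minus strand) and Cox8c (chr6:127793129-127793428, plus strand) had the highest and lowest CpG counts, 36 and 10, among the members with the highest or lowest signal for which a window was matched. Cox8a (chr1:213833574-213833873, minus strand), with 16 CpG, is the widely expressed isoform beside Cox8c and was added after values were seen, as was Cycs (chr4:80984718-80985017, minus strand), with 30 CpG. Capitals mark CpG in the first 3 and the match to the NRF1 motif in Cycs.
Ndufa6: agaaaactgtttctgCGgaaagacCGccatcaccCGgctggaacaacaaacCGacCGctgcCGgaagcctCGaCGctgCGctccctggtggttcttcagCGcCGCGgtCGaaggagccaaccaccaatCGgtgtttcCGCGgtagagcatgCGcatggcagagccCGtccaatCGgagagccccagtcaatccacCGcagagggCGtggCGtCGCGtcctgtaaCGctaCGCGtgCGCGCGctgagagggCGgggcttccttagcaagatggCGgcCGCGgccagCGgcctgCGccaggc
Cox8c: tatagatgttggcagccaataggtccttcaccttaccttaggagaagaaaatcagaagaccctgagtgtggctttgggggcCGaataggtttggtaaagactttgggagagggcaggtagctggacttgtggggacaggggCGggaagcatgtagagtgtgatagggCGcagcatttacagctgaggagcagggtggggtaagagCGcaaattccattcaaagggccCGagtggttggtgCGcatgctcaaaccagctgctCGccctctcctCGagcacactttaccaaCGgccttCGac
Cox8a: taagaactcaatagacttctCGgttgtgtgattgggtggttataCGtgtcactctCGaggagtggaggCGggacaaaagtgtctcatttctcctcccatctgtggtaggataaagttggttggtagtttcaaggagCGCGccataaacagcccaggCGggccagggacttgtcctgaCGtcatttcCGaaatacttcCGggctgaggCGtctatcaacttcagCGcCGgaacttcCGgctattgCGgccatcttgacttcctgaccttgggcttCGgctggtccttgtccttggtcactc
Cycs: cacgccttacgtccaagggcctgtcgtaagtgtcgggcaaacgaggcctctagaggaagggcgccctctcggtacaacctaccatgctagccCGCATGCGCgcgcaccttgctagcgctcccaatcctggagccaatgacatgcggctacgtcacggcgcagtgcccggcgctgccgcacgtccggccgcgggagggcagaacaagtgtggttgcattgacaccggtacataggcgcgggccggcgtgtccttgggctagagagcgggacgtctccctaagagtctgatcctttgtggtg

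Promoters could be matched for 77 member genes and for 12924 genes of the tables in all. The median CpG count was 20 in member windows and 16 in all windows, with the same median GC content of 57.7%. The NRF1 motif GCGCATGCG, searched on both strands like the others, stood in 9 of the 77 member windows (11.7%) and in 2.42% of all. Its core GCATGC, which also lies inside the longer motif, stood in 20.8% and 8.23%. The ETS motif CCGGAAGT was found in 13.0% of member windows and 5.96% of all, and the YY1 motif AAGATGGCG in 11.7% and 2.61%. TATAAA stood in 6.49% of member windows and 12.1% of all. A match is a string of letters and not a shown binding site, and a window without one lacks only those letters.

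The deposited signal is a read count over 5625 bp around a start, of which 4500 lie upstream, multiplied by 1 factor per library. Since all regions have 1 length, signals may be compared between genes, but capture depends on the number of CpG as well as on their methylation, so signal is not a methylation level. The regions of a library held 933037 to 1796410 reads (rounded), and the members 4658 to 7941. A single read was worth a signal of 0.883 to 1.19. In 9 libraries fewer than 1% of regions had no read (0.611% to 0.932%), against 1.60% to 5.39% in the other 61. They lie in several groups, with 2 in DEN30 and 1 each in APAP and water at hepatectomy, and 1 each in DEN30, TAA, MP, APAP and PB at the terminal time. DEN3 held none at either time. All but the APAP library at hepatectomy came from 1 run of label numbers just below the 10 highest, in which DEN3 had no library. Log2 differences of members in comparisons that hold such libraries are mostly given with and without them. Where only signal values are printed, these libraries are included. The 10 libraries with the highest label numbers repeated scaling totals of earlier libraries. Library numbers were not evenly spread over conditions, since the lowest 20 numbers held no MP or APAP library. Among the 10 highest, each initiated group had 1 library at each time, and PB and water had 0. Comparisons of initiated groups with PB therefore also differ in these libraries. Leaving them out lowered the terminal median log2 difference from PB over all regions in every initiated group. It went from 0.110 to 0.025 for APAP, from 0.091 to 0.050 for MP and from 0.089 to 0.031 for DEN3. For DEN30 it went from 0.069 to 0.005, and for TAA from 0.036 to -0.053. Defining markers of 6 liver cell types do not check the tissue here, because the signal is on DNA. Over 378 tests of their regions in the 14 treatment comparisons, 0 passed limma's adjusted threshold and 16 (4.23%) had an unadjusted p under 0.05, against 4.25% of all regions.

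Mean signal of the respiratory genes' start regions ran between 1.30 and 281, and that of all regions between 0.01 and 850.2. The median over the 91 places was 54.2, beside 53.6 over all 16876 places, and 46 of the 91 lay above 53.6. Median signal was 63.5 in complex I, 64.6 in complex II, 18 in complex III, 69.6 in complex IV, 44.8 in complex V and 43.1 in the assembly factors. Cycs, the electron carrier between complexes III and IV, had 80.1. The member nearest the median was Ndufab1 (63.7) for complex I, Sdhc (63.2) for complex II, Uqcrq (18) for complex III, Cox7c (70.4) for complex IV Atp5s (44.8) for complex V and Cox18 (40.8) for the assembly factors.

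**Figure D1:**
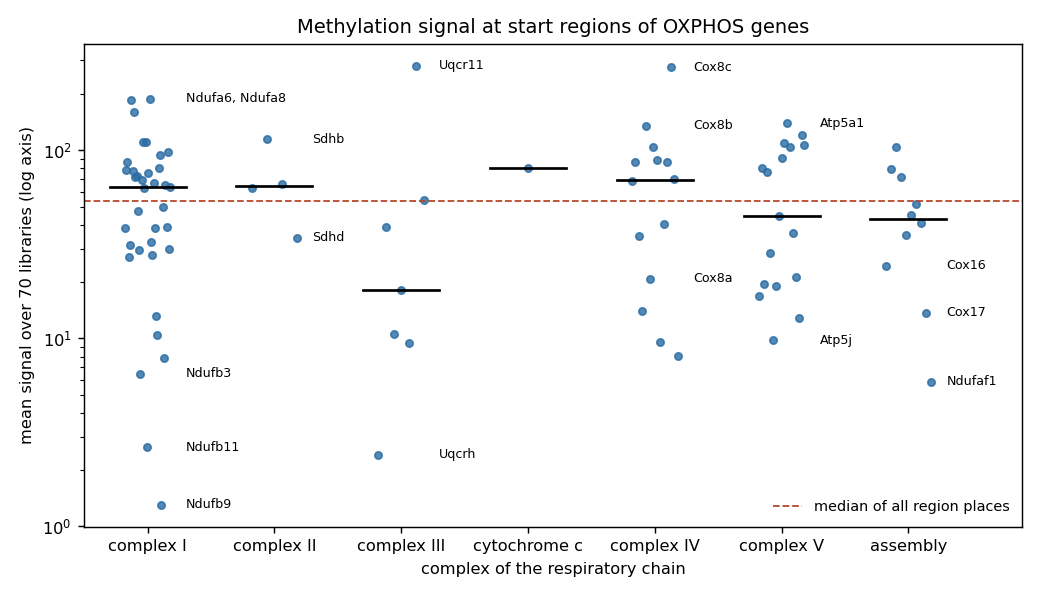
Mean signal over 70 libraries (vertical log axis) of each distinct start region, by complex; black bars are medians and the dashed line is the median of all region places, 53.6. Uqcr11 and Cox8c stand highest near 280, and Ndufb9, Uqcrh and Ndufb11 lie below 3.

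The 5 highest members were Uqcr11 (281 ± 77.1, SD over 70 libraries), Cox8c (277 ± 76.1), Ndufa6 (188 ± 40.1), Ndufa8 (185 ± 41) and the pseudogene Cox6c-ps1 (165 ± 28.3). Uqcr11 is a small subunit of complex III, and Ndufa6 and Ndufa8 are accessory subunits of complex I. Uqcr11 (chr7:10811922-10817547 in the files' coordinates) lay at the 96.6th percentile of all places. The Ndufa6 window printed above is dense in CpG, whereas that of Cox8c is sparse, so genes with either kind of window had regions of high signal. The signal is summed over a much longer region, most of which lies upstream. It does not show whether the printed windows themselves were captured. Spearman's correlation of the window's CpG count with the whole region's signal was 0.15 across 78 member regions with a matched window. It was 0.10 across 13224 regions of all genes. Those points share libraries and overlapping regions.

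The 5 lowest were the accessory complex I subunit Ndufb9 (1.30), the complex III hinge protein Uqcrh (2.40), Ndufb11 (2.63), the assembly factor Ndufaf1 (5.87) and Ndufb3 (6.50). Ndufb9 had no read in 39 of 70 libraries, Ndufb11 in 28, Uqcrh in 26 and Ndufaf1 in 8. Where a region had no read, the limit set by 3 counts was a signal of 2.65 to 3.57 for the library, which covers counting error only. A region was tested only with a signal of at least 10 in 5 or more libraries of a time. By this filter Ndufb9, Uqcrh and Ndufb11 were not tested at either time, and Ndufaf1 not at hepatectomy.

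Catalytic and core subunits showed no common level. In complex I, the iron-sulfur core subunit Ndufv2 had 31.2, whereas Ndufs1 and Ndufs8, of the same kind, had 86.7 and 93.95. In complex II, the flavoprotein Sdha had 66.0, the iron-sulfur subunit Sdhb 114 and the membrane anchors Sdhc and Sdhd 63.2 and 34.3. In complex III, the core proteins Uqcrc1 and Uqcrc2 had 38.9 and 9.42, and the Rieske protein Uqcrfs1 had 54.2. In complex V, the catalytic-domain subunits Atp5a1 and Atp5b had 139 and 16.7. The genes for the membrane-ring subunit c, Atp5g1, Atp5g2 and Atp5g3, had 76.4, 28.3 and 19.5.

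Among complex IV isoforms, the testis isoform Cox8c (277) and the muscle isoform Cox8b (135) stood above the widely expressed Cox8a (20.7). This order held in the means of all 70 libraries and was chosen for display after values were seen. The other pairs were closer. The muscle isoform Cox6a2 had 104 ± 20.02 and the widely expressed Cox6a1 86.9 ± 19, and Cox4i2, known from lung, had 86.1 ± 19.1 beside Cox4i1 with 88.6 ± 17.7. In neither pair was the difference of means larger than the SD between libraries, which does not test that difference. Whether the genes of a pair differ was not tested. Cox6b2, a testis isoform, had 68.8.

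Several member regions are not independent places, and some are placed doubtfully. Ndufv3, Cox6a2 and Ndufaf3 each had 2 rows at 1 place. Ndufa10 and Ndufa10l1 lie 38 bp apart on chromosome 9 and had 29.9 and 29.6. Ndufa10 is also listed on chromosome 6 (76.0), and Atp5h on chromosomes 10 (121) and 5 (80.4). For 6 rows, including this Ndufa10 row, the Atp5h row on chromosome 5, Ndufs6 and Atp5e, RefSeq's GRCr8 table places the gene on another chromosome, so their signal may not be that of the named gene's start. For 18 members that the authors' peak list also names, the start implied by the list's distances was compared with that of the region table. It lay within 50 bp for 15 and over 1000 bp away for Atp5c1, Ndufs1 and Cox16, where the gap was 46186 bp. The Cox16 promoter window was not printed for this reason.

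Divergent neighbours were frequent. A start on the opposite strand lay within 1000 bp upstream for 21 of 91 places (23.1%), against 6.69% of all places. The partner of Atp5j, a stalk subunit of complex V, is Gabpa, the DNA-binding subunit of GABP, 163 bp away, and their partly overlapping regions had 9.79 and 12.5. Sdhd and its partner Timm8b, a mitochondrial import chaperone 146 bp away, had 34.3 and 70.04. Cox4i1 lies 148 bp from Cox4nb, with 88.6 and 76.9.

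Treatment was examined first at partial hepatectomy, where 90 member rows could be tested. At neither time did any member pass limma's test with Benjamini-Hochberg adjustment over all regions, in any of the 14 treatment comparisons. The smallest adjusted p of a member was 0.359. Member medians of the log2 difference ran between -0.01 and 0.11 over these comparisons, and medians of all tested regions between -0.03 and 0.11. After quantile normalization the member medians ran between -0.05 and 0.02, so the sign of these medians depends on the scaling. Members had an unadjusted p under 0.05 in 4.81% of their 1267 tests, and all regions in 4.25% of theirs. The 5 initiated groups were each compared with the same 5 PB libraries, so PB values recur in those comparisons.

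**Figure D2:**
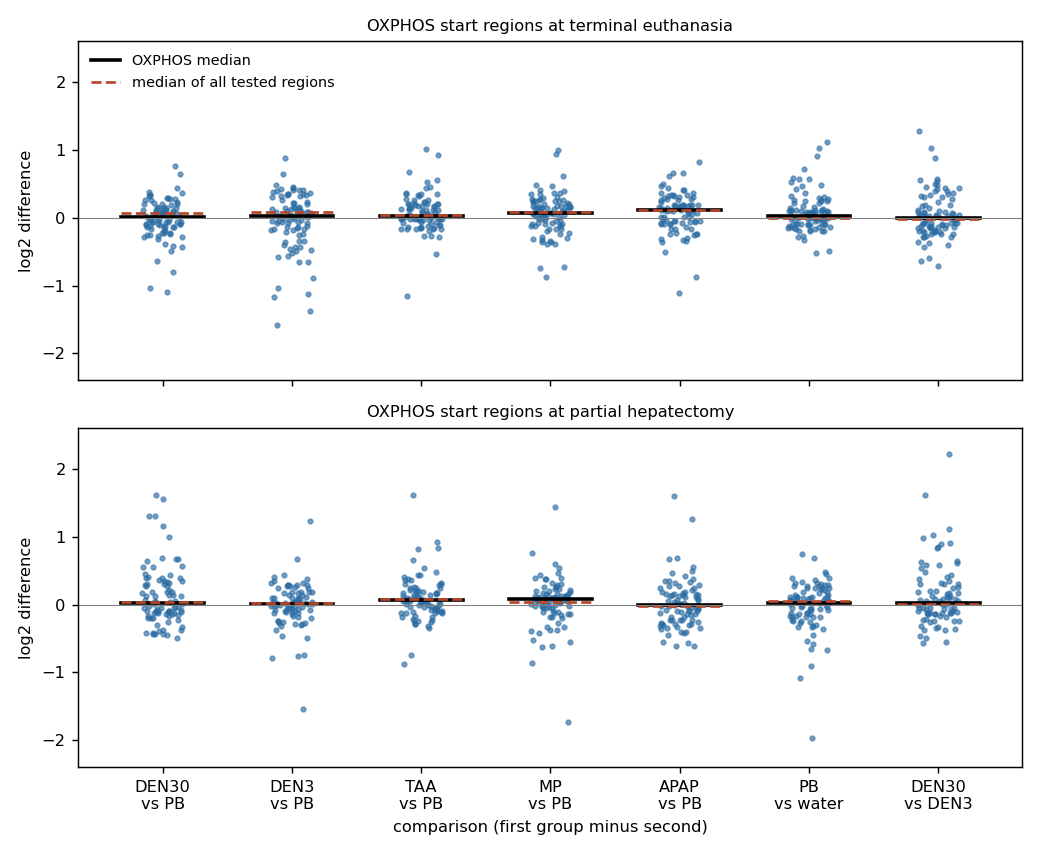
Log2 differences (vertical axis) of the tested member regions in 7 comparisons at each time, 1 point per place, with the member median (black) and the median of all tested regions (dashed). Both medians lie within 0.11 of 0 in every comparison, and the widest points are Cox16 at 2.23 for DEN30 against DEN3 and Cox17 at -1.97 for PB against water, both at hepatectomy.

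PB against water at hepatectomy asks what promotion does without an initiator. The call count was 0 of 90 members and 0% of 15809 regions by limma's adjusted p, and 6 members (6.67%) had an unadjusted p under 0.05, against 6.28% of all regions. Ndufs6, a zinc-binding accessory subunit of complex I, had 163, 103, 173, 132 and 149 in PB livers, against 71.0, 91.4, 95.6, 122 and 69.9 in water livers. The 2 lowest PB libraries lay on either side of the highest water library, so the groups overlapped. The log2 difference was 0.68 ± 0.20 (SE), with a limma adjusted p of 0.689. Without the water library of few unread regions the difference was 0.60.

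Atp5g1 (chr10:84790105-84795730) encodes 1 of the copies of subunit c. It had 107, 83.3, 86.9, 156 and 94.0 in PB livers, against 61, 50.3, 74.6, 46.3 and 76.9 in water livers. Every PB library lay above every water library. The difference was 0.75 ± 0.22 on the log2 scale (adjusted p = 0.689, limma), and 0.84 without the library of few unread regions.

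In the opposite direction, Atp5i, a membrane-domain subunit of complex V, had 15.8, 13.3, 17.0, 9.82 and 10.3 in PB livers, against 36.0, 17.5, 30.6, 25.2 and 38.5 in water livers. All PB values lay below all water values, and the log2 difference was -1.08 ± 0.37 (adjusted p = 0.734, limma), and -0.97 without the water library of few unread regions. Cox17, the copper chaperone for complex IV, averaged 3.62 ± 3.67 in PB livers, against 16.1 ± 15.0 in water livers, and the groups overlapped. Its log2 difference was -1.97, and -1.55 without the water library of few unread regions, which had 42.5. Non-overlapping groups were thus seen at 2 of 87 member places (2.30%), against 0.98% of all tested regions.

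DEN30 against PB gave 0 of 90 members called by limma (0% of 15809 regions) and 7 (7.78%) with an unadjusted p under 0.05, against 7.64% of all regions. Groups did not overlap at 0 of 87 member places, against 1.2% of all regions. The members with the smallest p were Cox8a and Cox17 upward and Cox15 and Ndufa8 downward. Cox8a had 13.8, 13.7, 27.8, 28.1 and 53.4 in DEN30 livers, against 10.5, 11.1, 25.4, 27.3 and no read in PB livers. The groups overlapped widely, and the log2 difference of 1.31 ± 0.54 rested on the PB library without a read, since it was 0.48 when that library was left out. Without the 2 DEN30 libraries of few unread regions it was 1.17.

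Cox17 differed by 1.55 ± 0.69 on the log2 scale between DEN30 and PB, and by 0.47 without the 2 DEN30 libraries of few unread regions, which had 34.5 and 26.1. Cox15, needed for heme A synthesis, had 83.6, 84.1, 49.9, 53.2 and 72.9 in DEN30 livers, against 89.5, 116, 78.4, 76.3 and 102 in PB livers. Of the DEN30 values 3 lay below all PB values, with an overlap between 76.3 and 84.1. Its difference of -0.44 ± 0.19 was -0.19 without those 2 libraries. Ndufa8 averaged 158 ± 56.6 in DEN30 livers, against 204 ± 37.7 in PB livers, and its difference of -0.41 was -0.13 without them. All 4 adjusted p-values from limma were between 0.593 and 0.641.

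DEN3 against PB gave 0 of 90 (0% of regions) and 3 (3.33%) at an unadjusted p under 0.05, against 3.17% of all. Cox5a, a core-bound subunit of complex IV, had 37.8, 35.8, 49.1, 50.8 and 49.0 in DEN3 livers, against 33.7, 34.4, 24.4, 27.3 and 19.7 in PB livers. The groups did not overlap, at 1 of 87 member places (1.15%) and 0.677% of all regions, and the log2 difference was 0.67 ± 0.26 (adjusted p = 1.00, limma). Cox16, an assembly factor of complex IV, had the smallest p in the other direction, with 8.48 ± 7.43 in DEN3 livers, against 23.6 ± 17.4 in PB livers.

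TAA against PB gave 0 of 90 (0% of regions) and 2 (2.22%), against 4.44% of all at an unadjusted p under 0.05. Atp5g1 had 57.4, 48.1, 48.6, 78.3 and 81.1 in TAA livers, all below the PB values given above, with a log2 difference of -0.74 ± 0.22 (adjusted p = 0.890, limma). This was the only non-overlapping place of 87 (1.15%, against 0.943% of all regions). Cox17 was higher by 1.61 ± 0.69 than the low PB values.

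MP against PB gave 0 of 90 (0% of regions) and 5 (5.56%), against 3.67% of all. Uqcrb, a ubiquinone-binding subunit of complex III, had 1.91, 4.51, 1.77, 0.887 and 3.33 in MP livers, against 5.27, 17.8, 13.8, 14.2 and 4.70 in PB livers. These are a few reads per MP library, and the groups did not overlap (1 of 87 places, 1.15%, against 0.886% of all). The log2 difference was -1.74 ± 0.66 (adjusted p = 0.999, limma), and it understates a change at such low values. Ndufs6 had the smallest p, with 101 ± 37.2 in MP livers, against 144 ± 27.5 in PB livers. Its groups overlapped, and the log2 difference was -0.55 ± 0.20 (adjusted p = 0.999, limma). Cox17 ranked first upward, by 1.44 ± 0.69 over the low PB values. Sdhc, a membrane anchor of complex II, averaged 69.9 ± 14.4 in MP livers, against 53.3 ± 11.1 in PB livers, with overlap.

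APAP against PB gave 0 of 90 (0% of regions) and 5 (5.56%), against 3.68% of all, and no member place had groups apart, against 0.576% of all. Ndufs6 had 108, 95.2, 71.3, 134 and 68.8 in APAP livers, against the PB values of 103 to 173 given above. Of those APAP values 4 lay at or under 108, and the groups overlapped, with a difference of -0.61 ± 0.20 (adjusted p = 0.991, limma). Atp5g1 differed by -0.61 ± 0.22. Without the APAP library of few unread regions these were -0.50 and -0.52. Cox17 had 5.70, 5.71, 4.82, 7.11 and 58.2 in APAP livers, and the last of these was the library of few unread regions. Its difference from PB was 1.60, and 0.98 without that library.

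**Figure D3:**
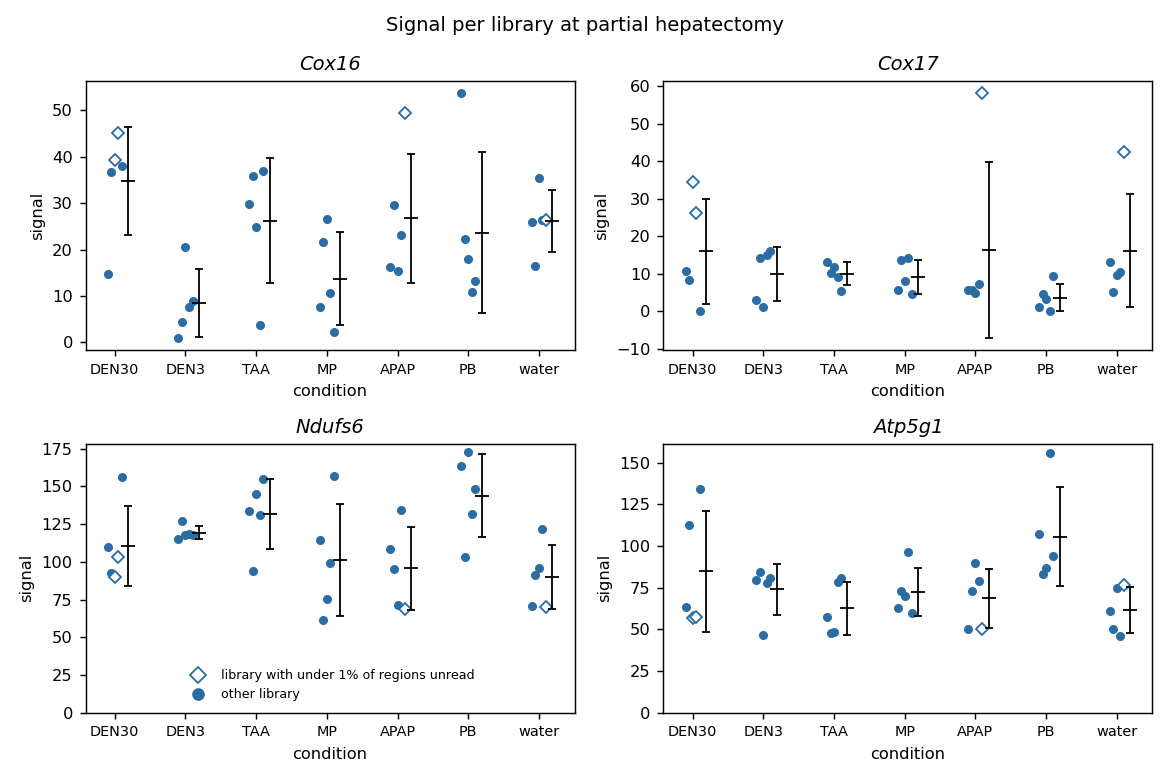
Signal of Cox16, Cox17, Ndufs6 and Atp5g1 (vertical axis) in each of 5 libraries per condition at hepatectomy, with group mean and SD beside them; open diamonds are libraries with under 1% of regions unread. The high Cox17 values of 58.2 in APAP and 42.5 in water are such libraries, and PB is the highest group for Ndufs6 and Atp5g1 and the lowest for Cox17.

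The DEN doses were set against each other directly. The count was 0 of 90 (0% of regions) for DEN30 against DEN3, and 7 members (7.78%) had an unadjusted p under 0.05, against 5.22% of all regions. Cox16 (chr6:105342491-105348116) had 14.8, 36.8, 39.3, 45.2 and 38.0 in DEN30 livers, against 0.970, 4.34, 20.6, 7.53 and 9.0 in DEN3 livers. In DEN30 livers 4 libraries lay above every DEN3 library and the remaining library below the highest of them. The log2 difference of 2.23 ± 0.50 had the smallest unadjusted p of any member in a treatment comparison (3.53e-05), and its limma adjusted p was 0.359. Without the libraries of few unread regions it was 1.99 (adjusted p = 0.854), and over all alternatives the adjusted p ran between 0.0544 and 0.978. At the terminal time DEN30 livers averaged 18.2 ± 14.5 for Cox16, near the 19.2 ± 12.1 of DEN3 livers.

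Sdhd had 46.6, 59.9, 39.3, 39.1 and 39.0 in DEN30 livers, against 30.1, 30.4, 33.1, 9.41 and 28.0 in DEN3 livers. The groups did not overlap (1 of 87 places, 1.15%, against 0.614% of all), with a log2 difference of 0.84 ± 0.31 and a limma adjusted p of 0.914. The difference was 0.53 without the DEN3 library at 9.41, and 0.96 without the DEN30 libraries of few unread regions. Ndufb5, an accessory subunit of complex I, had 46.6, 44.1, 45.1, 45.2 and 91.4 in DEN30 livers, against 78.5, 65.2, 69.7, 73.4 and 83.0 in DEN3 livers. Of the DEN30 values 4 lay together below all DEN3 values and 1 lay above them all. The log2 difference of Ndufb5 was -0.49, and -0.36 without the DEN30 libraries of few unread regions. In the F test over all 7 conditions at hepatectomy, 0 of 90 members passed, and 1 of 15809 regions did (0.00633%). An unadjusted p under 0.05 was found for 6 members (6.67%) and 4.16% of regions, and Cox16, Ndufs6, Atp5g1 and Cox5a had the smallest.

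At terminal euthanasia 91 member rows were tested. PB against water gave 0 of 91 (0% of 16008 regions) and 1 (1.10%) with an unadjusted p under 0.05, against 3.17% of all. That was the Atp5h row on chromosome 5, whose placement is doubtful, with 61.1 ± 15.8 in PB livers, against 87.1 ± 17.5 in water livers, whereas the row on chromosome 10 had 129 ± 45.4 and 117 ± 19. The log2 difference of the chromosome 5 row was -0.52, and -0.39 without the PB library of few unread regions. Ndufs6 averaged 112 ± 39.8 in terminal PB livers, against 88.0 ± 13.1 in water livers, and Atp5g1 81.1 ± 20.8, against 64.0 ± 25.1. Cox17 had 8.92, 16.6, 22.3, 16.1 and 61.8 in PB livers, against 8.17, 10.1, 13.0, 10.4 and 6.6 in water livers, so the PB mean was here the higher, with overlap. The value 61.8 is from a library of few unread regions, and the log2 difference of 1.03 was 0.64 without it. Atp5j was the only non-overlapping place of 88 (1.14%, against 0.6% of all), named after its values were seen, with 6.08 to 32 in PB livers and 4.08 to 5.78 in water livers.

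DEN30 against PB gave 0 of 91 (0% of regions) and 1 (1.10%) at an unadjusted p under 0.05, against 3.41% of all. Groups stood apart at 0 of 88 places, against 0.375% of all. Cox16 had 6.55, 5.43, 32.9, 11.4 and 34.9 in DEN30 livers, against 24.8, 9.51, 34.5, 47.3 and 69.8 in PB livers. The groups overlapped, and the difference of -1.10 ± 0.46 (adjusted p = 0.999, limma) had the other sign than at hepatectomy. It was -1.11 without libraries of few unread regions and -1.42 without the libraries of the highest label numbers. DEN3 against PB gave 0 of 91 (0% of regions) and 8 (8.79%), against 8.51% of all. Uqcr11, the member of highest signal, had 462, 299.9, 348, 339.6 and 417 in DEN3 livers, against 429, 214, 164, 304 and 154 in PB livers, with overlap and a difference of 0.65 ± 0.24 (adjusted p = 0.579, limma), or 0.50 without the PB library of few unread regions. Ndufa8 was the 1 non-overlapping place of 88 (1.14%, against 1.17% of all), with 206 to 233 in DEN3 livers and 102 to 193 in PB livers. Cox17 was lower by 1.58 on the log2 scale in DEN3, and by 1.19 without the PB library at 61.8.

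TAA against PB gave 0 of 91 (0% of regions) and 4 (4.40%), against 2.06% of all, with groups apart at 0 of 88 places, against 0.269% of all. Uqcrq, a small complex III subunit, had 24.9, 27.4, 19.8, 20.2 and 17.9 in TAA livers, against 11.9, 19, 4.05, 8.07 and 14.9 in PB livers. Only the highest PB library reached into the TAA range, and the difference was 1.01 ± 0.40 (adjusted p = 1.00, limma), or 1.15 without libraries of few unread regions. Cox8a averaged 18.7 ± 12.5 in TAA livers, against 31.5 ± 8.73 in PB livers, with a difference of -1.16 ± 0.44, which was -0.47 without the TAA library at 1.10 and -1.38 without libraries of few unread regions.

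MP against PB gave 0 of 91 (0% of regions) and 4 (4.40%), against 2.57% of all. Uqcrq and Atp5i were again the highest-ranked upward members, by 0.99 and 0.94, and Cox8a and Ndufs5 the downward ones, by -0.87 and -0.39. Without libraries of few unread regions these were 1.19, 1.16, -0.93 and -0.45. Uqcrq also ranked next to the top upward at this time for DEN3 (0.88, or 0.997 without such libraries) and for DEN30 (0.64, or 0.76). The TAA, MP, DEN3 and DEN30 comparisons share their PB libraries, in which Uqcrq averaged 11.6 ± 5.82. Cox6c-ps1 was the 1 non-overlapping place of 88 (1.14%, against 0.494% of all), with 165 to 199.5 in MP livers and 140.3 to 161 in PB livers.

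APAP against PB gave 0 of 91 (0% of regions) and 5 (5.49%), against 2.76% of all, with groups apart at 0 of 88 places, against 0.381% of all. Ndufa5, an accessory subunit of the matrix arm of complex I, had 35.1, 55.2, 58.8, 51.2 and 55.3 in APAP livers, against 26.8, 40.4, 32.4, 15.0 and 33.2 in PB livers. In APAP livers 4 libraries lay above every PB library. The difference was 0.82 ± 0.28 (adjusted p = 0.999, limma), and 0.82 also without libraries of few unread regions. Atp5g2 had 14.6, 15.8, 16.8, 11.4 and 37.9 in APAP livers, against 40.6, 27.3, 26.4, 41.5 and 33.2 in PB livers. Of the APAP values 4 lay below all PB values, with a difference of -0.88 ± 0.32 (adjusted p = 0.999, limma), or -0.86 without libraries of few unread regions.

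DEN30 against DEN3 at the terminal time gave 0 of 91 (0% of regions) and 3 (3.30%), against 3.01% of all, with groups apart at 0 of 88 places, against 0.275% of all. Cycs had 56.8, 52.1, 55.1, 50.7 and 83.6 in DEN30 livers, against 57.3, 65.9, 123, 122 and 151 in DEN3 livers. Of the DEN30 values 4 lay below every DEN3 value. The difference was -0.72 ± 0.22 with a limma adjusted p of 0.999, and -0.69 without the DEN30 library of few unread regions. At hepatectomy the same comparison of Cycs gave 67.9 ± 12.6 in DEN30 livers, against 95.8 ± 26.9 in DEN3 livers, a difference of -0.46 ± 0.22 (adjusted p = 0.935, limma), or -0.40 without the 2 such DEN30 libraries. The F test over conditions gave 0 of 91 members and 0% of regions, with 5 members (5.49%) and 2.55% of regions at an unadjusted p under 0.05. Atp5g2, Cox17, Ndufa5 and Ndufv2 had the smallest.

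The other members that ranked first or next in a direction had limma adjusted p-values of 0.579 or more. At hepatectomy, Ndufv3, a flavoprotein-arm subunit of complex I, averaged 127 ± 16.1 in DEN3 livers, against 99.3 ± 12.0 in PB livers, and Atp5g1 averaged 74.0 ± 15.4 in DEN3 livers, against 106 ± 29.7 in PB livers. Atp5s averaged 48.0 ± 9.48 in TAA livers, against 34.8 ± 5.42 in PB livers, and Ndufa7, an accessory complex I subunit of low signal, 6.07 ± 5.93 in TAA livers, against 9.02 ± 4.59 in PB livers. These groups overlapped.

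At the terminal time, Atp5sl averaged 126 ± 19.7 in DEN30 livers, against 98.6 ± 25.2 in PB livers. Cox7a2, a small complex IV subunit, averaged 3.92 ± 2.53 in DEN3 livers, against 10.9 ± 7.50 in PB livers, and 10.9 ± 7.50 in PB livers, against 4.09 ± 1.75 in water livers. Cox4i1 averaged 71.0 ± 10.9 in PB livers, against 89.1 ± 10.5 in water livers. All of these groups overlapped. Without libraries of few unread regions, the log2 difference of Atp5sl went from 0.38 to 0.34 and that of Cox4i1 from -0.33 to -0.23. Cox7a2 was not tested without them.

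Among complex I members, Ndufb10 averaged 62.9 ± 27.4 in terminal TAA livers, against 74.0 ± 19.99 in PB livers, and Ndufs5 57.7 ± 6.46 in MP livers, against 75.9 ± 7.25 in PB livers. Atp5e averaged 129 ± 16 in APAP livers, against 96.8 ± 25.2 in PB livers, and Cox7a2l, which takes part in joining complexes III and IV, 43.3 ± 10.9 in APAP livers, against 60.9 ± 10.1 in PB livers. Between the DEN doses, Ndufs7 averaged 44.6 ± 16.1 in DEN30 livers, against 32.1 ± 11.4 in DEN3 livers, and Ndufab1, the acyl carrier protein, 58.9 ± 30.1 in DEN30 livers, against 82.5 ± 15.5 in DEN3 livers. The groups overlapped in each case. Without libraries of few unread regions, log2 differences went from 0.44 to 0.30 for Atp5e and from -0.51 to -0.41 for Cox7a2l. Those of Ndufs7 and Ndufab1 went from 0.49 to 0.33 and from -0.63 to -0.46. Those of Ndufb10 and Ndufs5 went the other way, from -0.27 to -0.36 and from -0.39 to -0.45.

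The terminal time was compared with hepatectomy as a mean over the 7 conditions. Here 0 of 91 members passed and 11 of 16385 regions did (0.0671%), and 3 members (3.30%) had an unadjusted p under 0.05, against 6.59% of regions. Of the members 68 (74.7%) were higher at the terminal time, as were 70.4% of all regions, with medians of 0.06 and 0.05. After quantile normalization the member median was -0.01.

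Atp5g2 (chr7:141420138-141425763), another subunit c gene, came nearest to the threshold. It ranged over 11.4, 35.9 and 64.5 (lowest, median and highest of 35) at the terminal time, against 6.59, 23.3 and 50.6 at hepatectomy. The ranges overlapped, but its mean was higher at the terminal time in 7 of 7 conditions. The log2 difference was 0.54 ± 0.13 (adjusted p = 0.122, limma), 0.44 (adjusted p = 0.434) without the libraries of the highest label numbers, and 0.56 (adjusted p = 0.0613) without libraries of few unread regions. Leaving out a single hepatectomy library could change the call: the adjusted p was 0.0262 without water replicate 5, and 0.0252 without DEN3 replicate 2. With the replicate number as a block it was 0.0364. Cox17 (0.58, and 0.67 without libraries of few unread regions) and Uqcrc1 (0.20, and 0.16 without them) followed, with terminal means higher in 3 and 6 of 7 conditions.

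**Figure D4:**
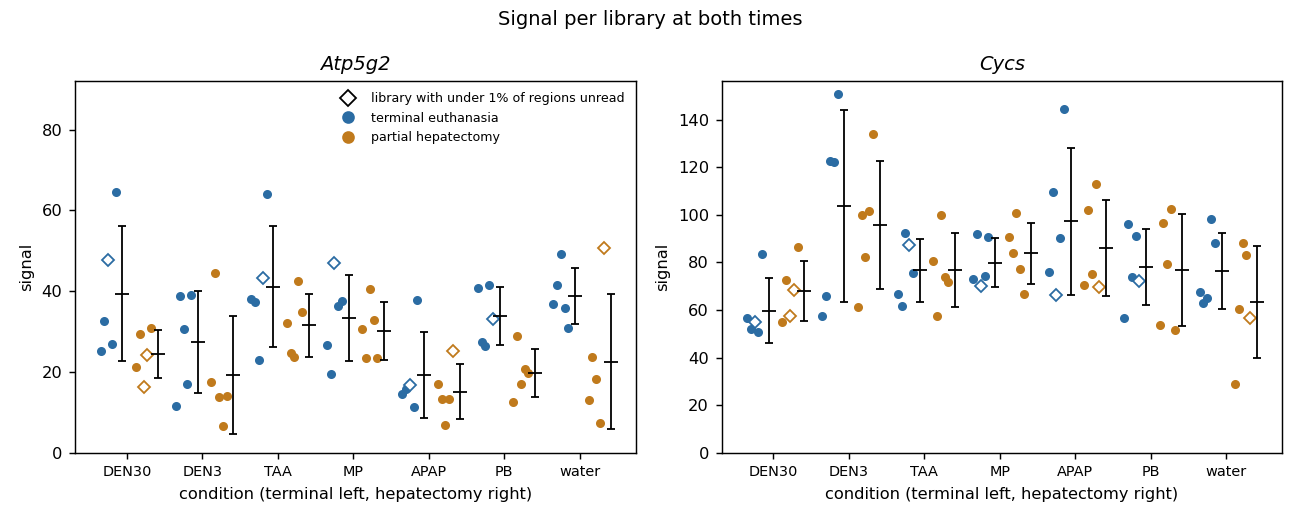
Signal of Atp5g2 and Cycs (vertical axis) in each library by condition, terminal euthanasia left of partial hepatectomy, with group mean and SD; open diamonds are libraries with under 1% of regions unread. Atp5g2 has the higher terminal mean in all 7 conditions, and Cycs is lower in DEN30 than in DEN3 at both times.

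Whether a treatment difference itself changed with time was tested as an interaction. It was called for 0 of 91 members and 0% of regions in each of the 6 comparisons. The members with an unadjusted p under 0.05 numbered 8 (8.79%) for DEN30 against PB, where 6.7% of all regions did so. They numbered 3 (3.30%) for DEN3, against 5.12%, 1 (1.10%) for TAA, against 2.2%, 3 (3.30%) for MP, against 1.81%, 5 (5.49%) for APAP, against 3.26%, and 3 (3.30%) for PB against water, against 6.63%. Cox17 led 3 of the 6, with a change of 3.00 ± 0.90 for PB against water (adjusted p = 0.705, limma). That value was 2.19 without libraries of few unread regions and 1.52 with a pseudocount of 10. Ndufa5 led the APAP comparison with 1.38 ± 0.44 (adjusted p = 0.980, limma), or 1.58 without libraries of few unread regions. These members were chosen after values were seen.

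The 9 libraries were picked for having few regions without a read, so higher values of low members in them follow in part from that choice, and the ratios are a description. Among the 23 members of lowest signal, 22 had a higher mean in the 9 libraries of few unread regions than in the other 61, with a median ratio of 2.13. Uqcrq was the exception. The median ratio was 1.23, 0.821 and 0.758 in the following groups of 23, 22 and 23, and 0 of the 23 highest members had a ratio above 1. Cox17 had 22.1 to 61.8 in the 9 libraries, and only 2 of the other 61 reached 22.1, their median being 9.21. Atp5i likewise had 32.6 to 47.1 in the 9, with a median of 17.0 in the others. Uqcr11 went the other way, with a median of 160.4 in the 9 and 283 in the 61. The coefficient of variation had a median of 69.5% in the lowest 23 and 21.7% in the highest 23. What made these libraries differ was not tested.

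**Figure D5:**
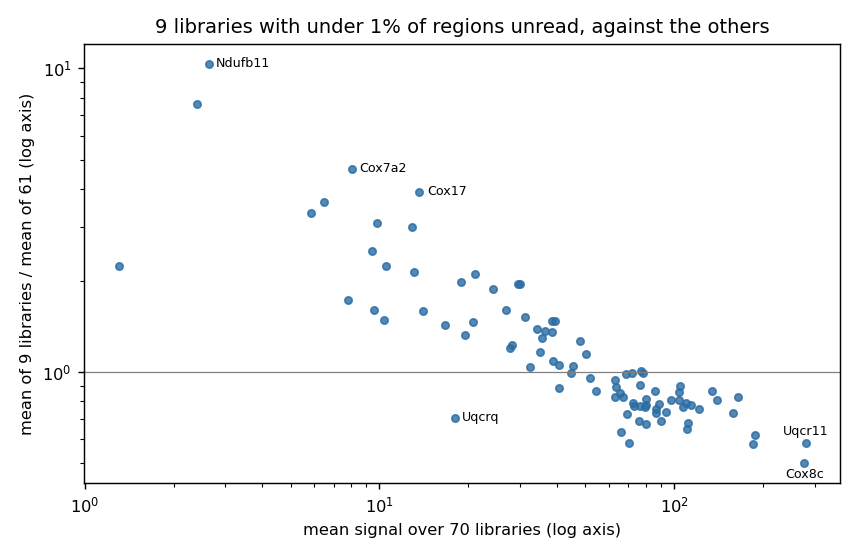
Mean signal of each member place over 70 libraries (horizontal log axis) against the ratio of its mean in 9 libraries with under 1% of regions unread to its mean in the other 61 (vertical log axis). Low members lie above 1, with Ndufb11 highest, and the highest members Uqcr11 and Cox8c lie well below 1; Uqcrq stands apart among the low ones.

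The authors' peak list sets DEN30 against PB with 1 score per peak, and no source used here names the caller. Its hypermethylated peaks of the earlier time touched 5 of 91 member places (5.49%), against 5.30% of all places, and its other 3 lists touched 0 of 91, against 0.397%, 0.551% and 0.913% of all places (hypomethylated at the earlier time, then hypermethylated and hypomethylated at the later). In the authors' deposited table the Atp5i peak (chr14:1865719-1865892) had 21 reads in the higher set and 4 in the other, and the Cox16 peak (chr6:105347751-105347948) 18 and 2. The others were in the regions of Atp5e, Uqcrfs1 and Atp5c1. Over the whole region at hepatectomy, Atp5i averaged 23.7 ± 14.1 in DEN30 livers, against 13.2 ± 3.18 in PB livers, a log2 difference of 0.64 ± 0.37 that was 0.08 without the 2 DEN30 libraries of few unread regions. Cox16 averaged 34.8 ± 11.6 in DEN30 livers, against 23.6 ± 17.4 in PB livers (0.68 ± 0.50, and 0.44 without them). All 5 region differences were above 0, between 0.06 and 0.68, with limma adjusted p-values between 0.691 and 0.951. These regions were taken for holding a peak listed as higher in DEN30 than in PB, so their shared sign was partly fixed in advance. The smallest, that of Uqcrfs1, was -0.05 without the libraries of the highest label numbers.

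Other respiratory genes outside the member rule were taken from a list of 49 names, of which 43 had a region. They cover cytochrome c1, electron transfer flavoprotein, assembly factors, carriers, uncoupling proteins and transcription factors. In each of the 14 treatment comparisons 0 of 39 to 41 tested regions passed limma's adjusted threshold, with 0 to 6 at an unadjusted p under 0.05. The 6 were of 39 (15.4%) for APAP against PB at hepatectomy, against 3.68% of all regions, and DEN3 against PB had 5 of 39 (12.8%), against 3.17%. Genes of this list were not refitted without the libraries of few unread regions. Atpaf2, an assembly factor of complex V, had 19, 15.8, 14.4, 20.1 and 16.4 in DEN30 livers at hepatectomy, against 1.05, 3.33, 11.7, 10.9 and 5.64 in PB livers. All DEN30 values lay above all PB values, with a difference of 1.55 ± 0.46 (adjusted p = 0.395, limma). Slc25a4, the adenine nucleotide carrier, averaged 19 ± 9.43 in DEN30 livers, against 6.32 ± 6.02 in DEN3 livers (adjusted p = 0.807, limma). The groups overlapped, and the highest DEN30 values, 22.1 and 34.1, are from libraries of few unread regions. At the terminal time Tmem126b, an assembly factor of complex I, averaged 11.6 ± 11.2 in DEN30 livers, against 24.7 ± 10.8 in PB livers (adjusted p = 0.999, limma). Bcs1l, the chaperone that inserts the Rieske protein, averaged 1.21 ± 0.79 in DEN3 livers, against 8.22 ± 7.66 in PB livers (adjusted p = 0.579, limma). The DEN3 values, at most 2.04, are a few reads or no read. The highest PB value, 19.5, is from a library of few unread regions. The highest levels in this list were Ucp1, the uncoupling protein of brown fat, with 467 ± 93.7, and Ucp2 with 165 ± 40.6, and Cyct, the testis form of cytochrome c, had 146 ± 29.6 beside 80.1 for Cycs.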

How the data were processed

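Methylated DNA of rat liver was sequenced in 70 libraries. Per the file headers, the 2 deposited region tables hold 1 signal value per library and region. The values themselves show a scaling of each library's reads by its own factor. Above a placeholder of 0.01 for no read, 100% of deposited values were whole multiples of 1 step per library (tolerance 0.01), the step being a constant divided by the library's own scaling total. The meaning of that total, the build and the aligner are not stated in the labels or headers. Per the file headers the tables also carry the authors' p-value per region, not used here, and the deposited peak list gives read counts and an enrichment, a fold of both counts. The list calls its later time 11w and the region files call theirs 10W, and both were read as terminal euthanasia.

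Signal was taken as log2(value + 1), so fold changes of low regions are understated. A region was tested with at least 10 in 5 or more libraries. limma 3.58.1 (R 4.3.3) fitted group means with a variance trend at each time (35 libraries) and over both (70 libraries), with Benjamini-Hochberg adjustment over all regions and a threshold of 0.05; the fit was tested on simulated data. Named members were the 2 per direction with the smallest p in each treatment comparison, the 4 smallest F test p-values per time, the 5 highest and 5 lowest levels, and the member nearest each complex's median. Members and gene lists were chosen with earlier results of these data known. Sample groups came from sample titles. Replicate numbers were not taken to pair libraries, since no label says that they do and deviations of same-numbered libraries of both times correlated over 0.1 in 11 of 35 pairs, not in all. Their median correlation was 0.08, against -0.01 for libraries of different numbers. Libraries of both times were thus fitted as independent, although some may come from the same rat. The listed alternative count tests with edgeR and DESeq2 were not run on these scaled values. Intervals and limits cover counting error only.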

Additional observations from a re-analysis of the deposited data

Results flagged for a closer look

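In 107 sets of 5 values (93 of a named member in a group of its treatment comparison and 14 of the median member signal in a group), 16 held a library farther from the others than Dixon's 95% critical value of 0.71 allows, and chance gives about 1 in 20 sets. Sets of 1 gene in several groups, and of several genes in 1 library, are not independent.

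At hepatectomy, Cox17 had 58.2 in APAP replicate 5, where the next value was 7.11, and 42.5 in water replicate 5, with 13.0 next. Cox16 had 14.8 in DEN30 replicate 1, below the next value of 36.8, and 53.7 in PB replicate 1, with 22.2 next. Ndufb5 had 91.4 in DEN30 replicate 5, with 46.6 next. Sdhd had 9.41 in DEN3 replicate 4, below 28.0, and Atp5g1 had 46.8 in DEN3 replicate 3, below 78.1. Atp5s had 32 in TAA replicate 1, below 48.8, and Ndufv3 had 119.98 in PB replicate 4, with 97.8 next.

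At the terminal time, Cox17 had 30.7 in DEN30 replicate 3, with 10.6 next, and 61.8 in PB replicate 5, with 22.3 next. Cox7a2 had 24.0 in that PB replicate 5, with 9.22 next. Uqcrq had 47.2 in MP replicate 1, with 19.9 next, and Atp5g2 had 37.9 in APAP replicate 5, with 16.8 next. Cycs had 83.6 in DEN30 replicate 5, with 56.8 next. The median member signal was 60.8 in PB replicate 3, with 54.2 next. Of the libraries named here, APAP and water replicate 5 at hepatectomy and DEN30 replicate 3 and PB replicate 5 at the terminal time are among the 9 with few unread regions.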

How the results depend on the processing

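The count of members called was 0 in 23 comparisons, and it was 0 under 206 of 207 values from other pseudocounts (10 and 0.5), filters, quantile normalization, blocks and left-out library sets. With the replicate number as a block, the terminal against hepatectomy comparison called 1 member, Atp5g2 (adjusted p = 0.0364). Same-numbered libraries of the times correlated best with each other in 21 of 35 cases, a hint from the data and not from the design; the block changed no other call. With single libraries left out, that count ran from 0 to 1. In the other comparisons it ran from 0 to 0. Counts over all regions differed for that comparison too, with 25 after quantile normalization and 23 without the 9 libraries of few unread regions, against 11. For DEN30 against PB at hepatectomy they were 5 with a pseudocount of 10 and 3 with library numbers as covariate, against 0. For the F test at hepatectomy they were 2 with a pseudocount of 10, the stricter filter or quantile normalization, and 0 with a pseudocount of 0.5, no filter, library numbers as covariate or without the highest library numbers, against 1. Other comparisons with 0 gave at most 2 under these settings. With single libraries left out, DEN30 against PB at hepatectomy gave 0 to 4, the F test there 0 to 4 and the time difference of PB against water 0 to 5. No named difference changed sign in 750 values under these alternatives or in 3710 with a library left out. Both totals include F tests, which have no sign. Leaving out a library outside the groups of a comparison cannot change its difference, and members were named for small p-values. The stable signs were thus partly fixed in advance. The stricter filter, which removes low members, moved the median level of complex III to 46.6 (from 7 places) and of complex V to 60.6; no other level moved by more than its SD. edgeR and DESeq2 were listed and not run. Depth limits the lowest members, where a few reads set a value.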
